A study of Mus musculus with 62 samples.

Results

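The 10 genes described here encode 8 ligands and 2 receptors of the transforming growth factor-beta (TGF-beta) superfamily: Tgfb1, Tgfb2, Tgfb3, Inhba, Inhbb, Mstn, Gdf10 and Gdf15, and the receptors Tgfbr2 and Acvr1c. They were taken by symbol from a table of 47643 gene symbols measured by RNA sequencing of white adipose tissue, and all 10 were found. The animals were female mice, 2 months old per the labels, injected with melanoma cells of a cachectic kind (CAC) or of a non-cachectic kind (NCAC), or mock injected (Con, called mock here), and tissue was taken at 2, 4, 6 or 8 weeks. Each of the 12 arm-by-week groups held 5 libraries, except CAC at 8 weeks with 7, for 62 libraries in all. The design text calls the mice NCI Ath/nude, whereas the sample tags name C57BL6/J, so the strain is uncertain. The treatment tag names the cachectic cells for every sample, mock ones included, and each library was therefore assigned by its description. The melanoma lines, the number of clones behind them and the fat depot were not given in the sources used here. A protocol line mentions Lewis lung carcinoma cells and a week that no sample carries. The 10 genes are all annotated as protein coding by GENCODE on GRCm38: Tgfb1 at chr7:25687002-25705077, Tgfb2 at chr1:186622792-186705989, Tgfb3 at chr12:86056745-86079041, Tgfbr2 at chr9:116084293-116175360, Inhba at chr13:16011851-16031621, Inhbb at chr1:119415465-119422248, Acvr1c at chr2:58267453-58357895, Mstn at chr1:53061640-53068079, Gdf10 at chr14:33923587-33937983 and Gdf15 at chr8:70629393-70632456.

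TGF-beta superfamily ligands are secreted as dimers, often in a latent form, and signal by bringing together a type II and a type I serine/threonine kinase receptor, which phosphorylate Smad transcription factors. TGF-beta and activin ligands act mainly through Smad2 and Smad3, and bone morphogenetic proteins (BMPs) mainly through Smad1, Smad5 and Smad9. In adipose tissue, TGF-beta and activin signals restrain the conversion of progenitors to adipocytes and promote matrix production by stromal cells, while activin B and myostatin-like ligands reach adipocytes through the receptor ALK7, the product of Acvr1c.

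Levels are TPM values, transcript abundances scaled for gene length and to a fixed library total. In every library the table summed to 1000000 TPM, so sequencing depth is unknown, and no counting interval can be given. Between 11783 and 14470 symbols reached 1 TPM per library, and mitochondrially encoded genes took 17.2% to 44.4% of the TPM. The 10 adipocyte markers (among them Adipoq, Plin1 and Fabp4) summed to between 32444 and 92217 TPM per library, with none at 0 in any group, and the 7 melanocyte markers summed to between 6.58 and 38.7 TPM. The labels call the replicates biological and give no batch. A gene was tested where its mean over the 62 libraries was at least 0.5 TPM. That left 14577 symbols and 7 of the 10 genes, while Inhba, Gdf15 and Mstn fell below that mean. Differences are on the log2(TPM + 1) scale, which understates those of low genes, and were called where limma's p, adjusted by Benjamini-Hochberg over all genes tested, was under 0.05.

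The members spanned a wide range of levels. Tgfbr2, the type II receptor for TGF-beta, was the highest at a mean of 143 TPM over 62 libraries, ranging from 53.3 to 361 TPM, and it exceeded Inhbb in 62 of 62 libraries. Inhbb, the subunit of activin B, averaged 28.8 TPM, but ranged from 1.37 to 293 TPM. Gdf10 (also called BMP3B) averaged 22.5 TPM, Acvr1c 17.8 TPM, Tgfb1 16.5 TPM, Tgfb3 14.3 TPM and Tgfb2 3.65 TPM. The order of the middle genes was loose: Gdf10 lay above Acvr1c in 37 libraries, Acvr1c above Tgfb1 in 31 and Tgfb1 above Tgfb3 in 50, whereas Tgfb3 lay above Tgfb2 in 62. Inhba, the subunit of activin A, averaged 0.317 TPM, Gdf15, a stress-induced circulating ligand, 0.244 TPM, and Mstn, which encodes myostatin, 0.178 TPM.

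Within the ligand families, shares varied between libraries. Of the summed TPM of the TGF-beta ligand genes, Tgfb1 made 50.4% ± 9.3, Tgfb3 39.8% ± 7.5 and Tgfb2 9.74% ± 4.42 (SD, n = 62). Per library, Tgfb1 ran from 27.1% to 70.1%, both in CAC tissue at 2 weeks, Tgfb3 from 25.5% to 61.5% and Tgfb2 from 3.72% to 24.8%, so that the leading ligand gene was not the same in every library. Of the summed activin subunit genes, Inhba made 1.86% ± 1.84 (SD, n = 62) and at most 10.2%, and Inhbb made the rest.

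**Figure D1:**
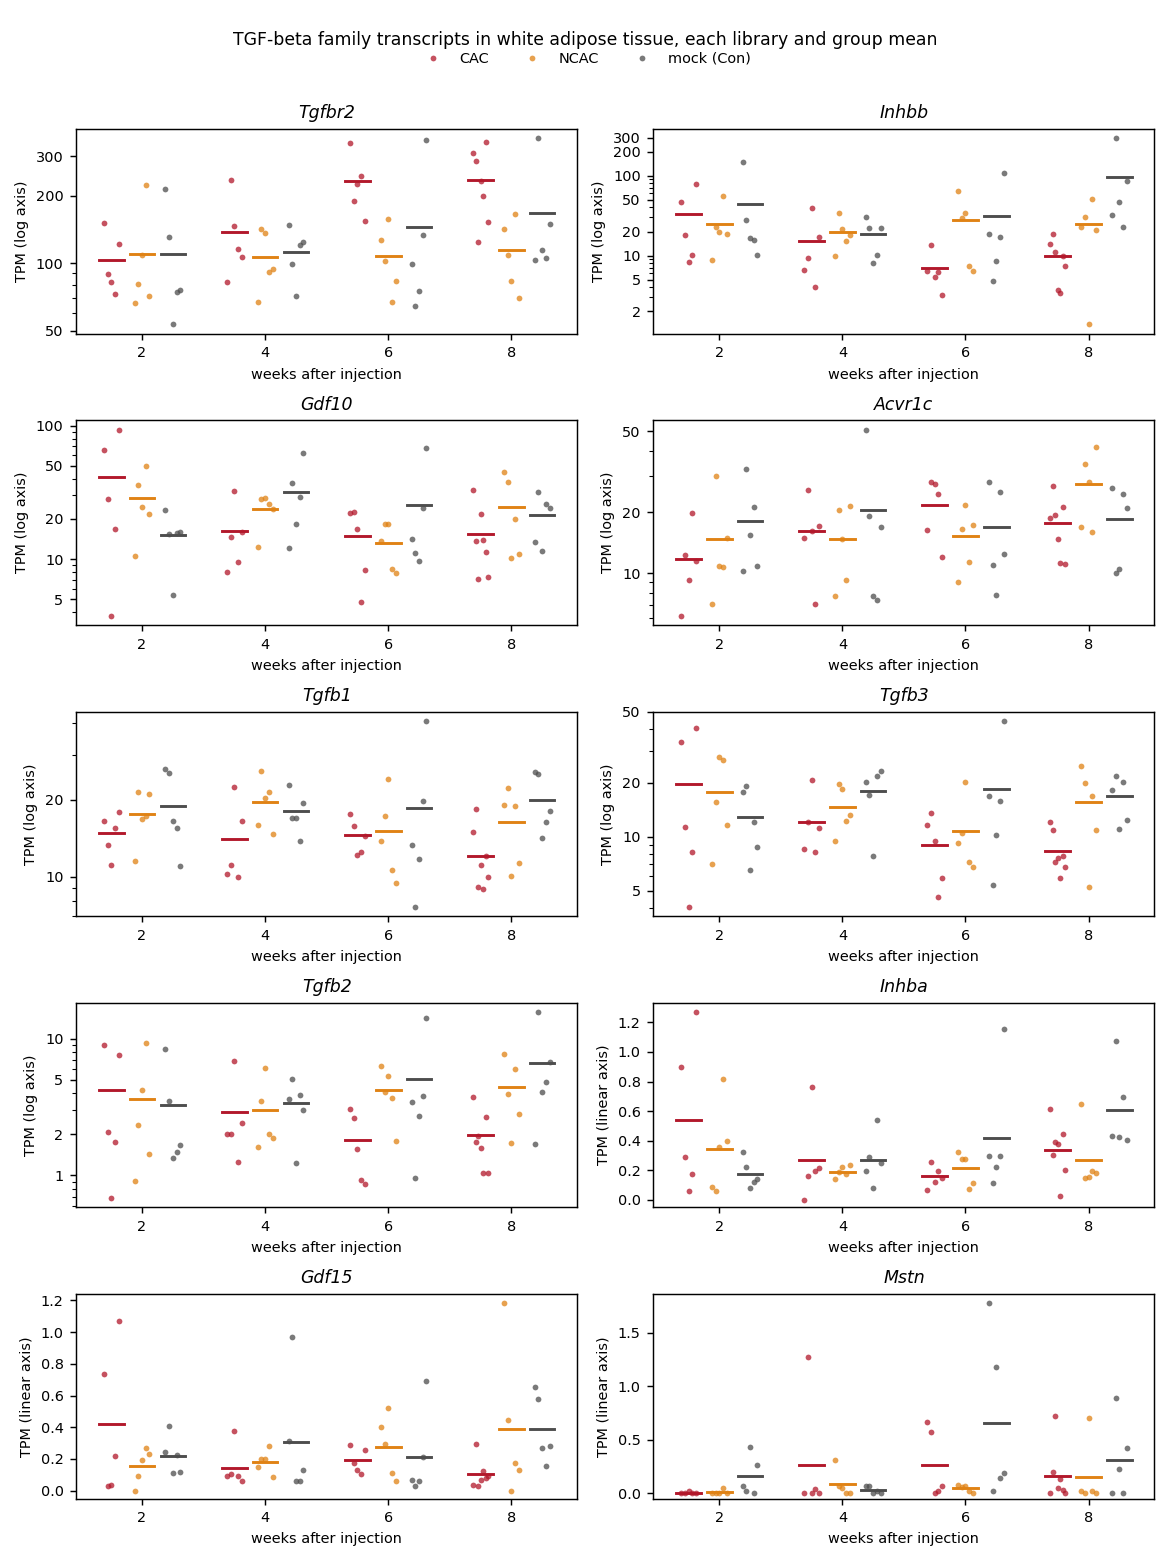
Level of each of the 10 genes in TPM (vertical axis, log scale except for Mstn, Inhba and Gdf15) by week after injection, with each library as a point and the group mean as a bar for CAC, NCAC and mock tissue. Inhbb in CAC libraries lies low at 6 and 8 weeks, Tgfbr2 in CAC libraries lies high at 6 and 8 weeks, and Mstn is at 0 in 24 libraries.

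Inhbb encodes the beta-B subunit, which forms activin B, a ligand known in adipose tissue as a product of fat and stromal cells. Its group means at 2, 4, 6 and 8 weeks were 32.7, 15.4, 6.96 and 9.79 TPM in CAC tissue, 25.2, 19.8, 28.1 and 25.1 TPM in NCAC tissue, and 43.8, 18.5, 31.7 and 95.7 TPM in mock tissue. The lowest of the 12 groups was CAC at 6 weeks and the highest mock at 8 weeks. No gap between neighbours in the ordered group means exceeded the larger of the neighbours' SDs, for Inhbb or for any other of the 10 genes (0 of 110 gaps).

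At 8 weeks Inhbb fell in CAC tissue relative to mock tissue. It ranged from 3.38 to 18.7 TPM, with a median of 9.95 TPM, in the 7 CAC libraries, against 32.2, 293, 46.3, 23.0 and 84.7 TPM in the 5 mock libraries. All 7 CAC libraries lay below every mock library, and mock replicate 2 stood far above the other mock libraries. The log2 change was -2.71 with an SE of 0.57 (adjusted p = 0.0256), a fold of 0.152. Inhbb and Tgfb3 were the 2 members called of 7 tested in this comparison, both lower, against 3.07% of all genes called in either direction and 1.99% called lower. Groups that did not overlap, with CAC lower, were found for 2.22% of all genes. The Inhbb call was lost when any of CAC replicates 4, 5, 6 or 7 or mock replicate 5 was left out (adjusted p from 0.05 to 0.0604), while the log2 change stayed between -3.06 and -2.16 without any single library.

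Inhbb in NCAC tissue at 8 weeks was 22.7, 30.3, 1.37, 50.3 and 21.1 TPM, so that 4 of its 5 libraries lay above every CAC library and 1 lay below. The log2 change of CAC against NCAC tissue was -0.94 with an SE of 0.65 (adjusted p = 0.536), and without NCAC replicate 3, the lowest of all libraries for Inhbb, it was -1.67 (adjusted p = 0.0297). This change was called in 2 of 24 alternatives. In this comparison 0 of 7 members were called, where limma called 0.528% of all genes. At an unadjusted p under 0.05, a looser threshold than that share uses, 3 of 7 members passed. NCAC against mock tissue gave -1.78 with an SE of 0.85 (adjusted p = 1). Averaged over the 4 weekly differences in a fit of all 62 libraries, Inhbb fell by 1.18 on the log2 scale in CAC relative to mock tissue (SE 0.36, adjusted p = 0.0241), the only member called, where 11.4% of all genes were called and 6.13% called lower. That call was lost without the mock libraries described below, replicate 5 at 6 weeks and replicate 2 at 8 weeks (-0.88, adjusted p = 0.0837), and without the 19 libraries with over 100 TPM of urothelial markers (-1.20, adjusted p = 0.305). Leaving out those 19 libraries cut the calls over all genes from 1658 to 123. The same average was -0.75 for CAC against NCAC tissue (adjusted p = 0.178) and -0.43 for NCAC against mock tissue (adjusted p = 0.948).

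Inhbb did not pass the test in CAC against mock tissue at 2 weeks (log2 change -0.17), 4 weeks (-0.51) or 6 weeks (-1.33, SE 0.66, adjusted p = 0.57). No member was called at any of these weeks. At an unadjusted p under 0.05, the members counted 0, 0 and 1 of 7 at 2, 4 and 6 weeks. All genes at that threshold counted 503 of 14572, 405 of 14576 and 1377 of 14571. At the adjusted threshold limma called 0.00686%, 0.00686% and 0.357% of all genes. The change of the CAC effect between 2 and 8 weeks, tested as an interaction, was -2.54 for Inhbb (SE 1.00, adjusted p = 0.496). That test called no member, where 0.0549% of all genes were called, so a growing difference over time was not shown by its own test. At the looser threshold of an unadjusted p under 0.05, 1 of 7 members passed.

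Fibroblast and progenitor transcripts moved with Inhbb. At 8 weeks the 10 fibroblast and progenitor markers, among them Pdgfra, Dpt and Lum, summed to between 459 and 945 TPM in CAC libraries (median 543), between 249 and 1860 TPM in NCAC libraries (median 1472), and between 784 and 4912 TPM in mock libraries (median 1202). In CAC relative to mock tissue 5 of these 10 markers fell, and none was at 0 in any group. Fewer cells of a type and less RNA per cell cannot be told apart in bulk tissue. With the mean of the 10 markers as a covariate, the log2 change of Inhbb at 8 weeks was -0.88 (adjusted p = 0.458) and its average over the weeks was -0.19 (adjusted p = 0.415). That covariate left 0.00686% of all genes called at 8 weeks. The 8 mesothelial markers also had lower values in CAC tissue at 8 weeks, with sums of 79.8 to 138 TPM in CAC libraries and 119 to 371 TPM in mock libraries. Of these 8, 1 fell and 6 had an unadjusted p under 0.05, and 5 fell on average over the weeks. In CAC against mock tissue at 8 weeks, 2999 of all 14577 genes had an unadjusted p under 0.05. The 7 smooth muscle and pericyte markers summed to between 288 and 709 TPM in CAC libraries and between 385 and 3743 TPM in mock libraries, with 5 of 7 at an unadjusted p under 0.05 and 0 called. Urothelial markers exceeded 100 TPM in 5 of 7 CAC libraries and 1 of 5 mock libraries. No marker of these lists was at 0 in any library group of that week, and the part of mesothelial and smooth muscle transcripts in the Inhbb result was not tested.

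The TGF-beta ligand genes encode closely related cytokines that bind the same receptor pair. Tgfb3 fell in CAC tissue at 8 weeks, with 5.88 to 12.1 TPM and a median of 7.62 TPM over 7 CAC libraries, against 18.3, 21.9, 11.1, 20.2 and 12.4 TPM in mock libraries. Of the CAC libraries, 6 of 7 lay below every mock library. The log2 change was -0.92 with an SE of 0.21 (adjusted p = 0.0368). The call was lost when CAC replicate 4, 5, 6 or 7 or mock replicate 1, 2 or 4 was left out (adjusted p from 0.0679 to 0.0846), and with the fibroblast covariate the change was -0.35 (adjusted p = 0.461).

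Tgfb1 and Tgfb2 had negative values in the same comparison that did not pass the test over all genes. Tgfb1 was 8.97 to 18.5 TPM, with a median of 11.1 TPM, in CAC libraries, against 25.7, 25.4, 14.1, 16.4 and 18.0 TPM in mock libraries. Of the CAC libraries, 5 of 7 lay below every mock library, and the log2 change was -0.68 (SE 0.21, adjusted p = 0.0922). Tgfb2 was 1.03 to 3.71 TPM, with a median of 1.76 TPM, in CAC libraries, against 1.70, 15.6, 4.08, 4.83 and 6.74 TPM in mock libraries (log2 change -1.16, SE 0.37, adjusted p = 0.102). The mock groups were wide for Tgfb2, and replicate 1 at 8 weeks lay within the CAC range. Without that library the Tgfb2 change was -1.46 (adjusted p = 0.0414), and 4 of 24 alternatives called it.

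Tgfb2 at 6 weeks was 3.04, 2.61, 1.57, 0.934 and 0.869 TPM in CAC tissue, against 6.28, 4.09, 5.33, 3.68 and 1.80 TPM in NCAC tissue. Of the CAC libraries 3 of 5 lay below every NCAC library, the log2 change was -0.90 (SE 0.29, adjusted p = 0.0892), and without NCAC replicate 5 it was -1.11 (adjusted p = 0.0382). This 6-week change was called in 5 of 21 alternatives. Against NCAC tissue at 8 weeks, the log2 changes in CAC tissue were -0.39 for Tgfb1, -0.81 for Tgfb2 and -0.70 for Tgfb3, with adjusted p-values of 0.444, 0.191 and 0.284. Without NCAC replicate 3 Tgfb2 and Tgfb3 were called, at -1.03 (adjusted p = 0.0405) and -1.01 (adjusted p = 0.0224). Only 2 of 23 alternatives called Tgfb2 in this comparison, and 2 of 24 called Tgfb3.

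**Figure D2:**
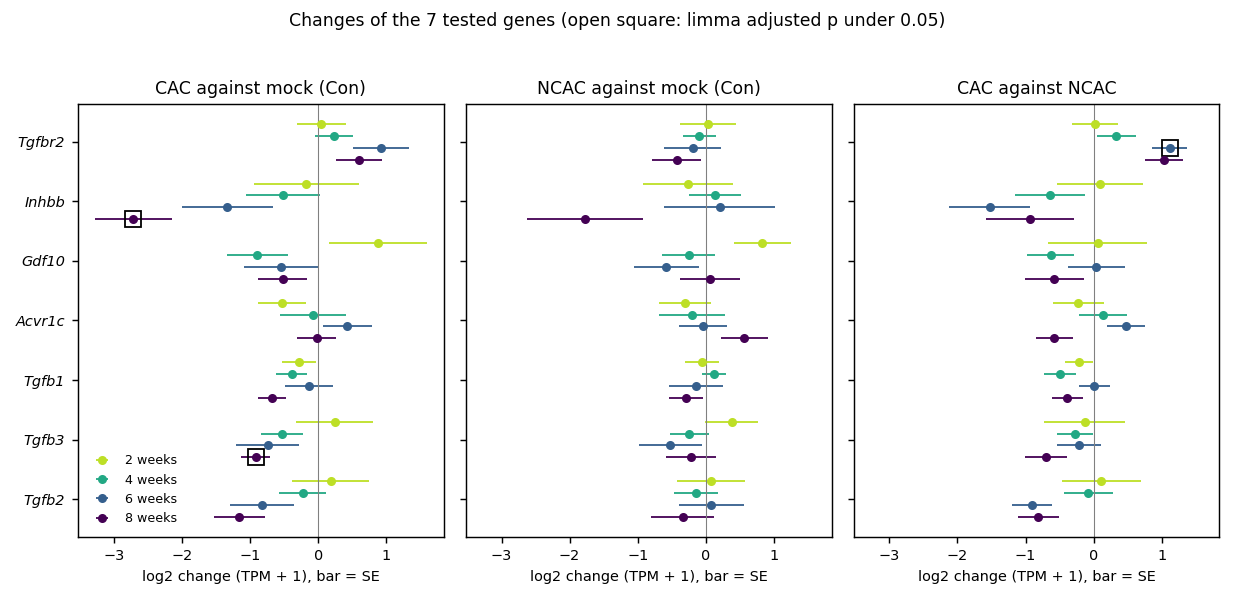
Log2 changes of the 7 tested genes, with bars of 1 SE, at 2, 4, 6 and 8 weeks for CAC against mock, NCAC against mock and CAC against NCAC tissue; open squares mark called changes. Inhbb (-2.71) and Tgfb3 (-0.92) are marked at 8 weeks in CAC against mock tissue, and Tgfbr2 (1.11) at 6 weeks in CAC against NCAC tissue.

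Tgfbr2 encodes the receptor that binds TGF-beta ligands and recruits the type I receptor. Unlike the ligand genes, it had its highest group means in CAC tissue at 6 and 8 weeks. Its group means at 2, 4, 6 and 8 weeks were 104, 138, 232 and 236 TPM in CAC tissue, 110, 106, 107 and 114 TPM in NCAC tissue, and 110, 113, 145 and 167 TPM in mock tissue. At 6 weeks the CAC libraries held 346, 189, 226, 244 and 154 TPM, against 127, 103, 158, 66.9 and 83.2 TPM in NCAC libraries. Of the CAC libraries 4 of 5 lay above every NCAC library. Tgfbr2 rose by a log2 change of 1.11 with an SE of 0.26 (adjusted p = 0.0333), a fold of 2.16, and was the only 1 of 7 members called, where limma called 5.78% of all genes and 4.94% as higher.

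At 8 weeks Tgfbr2 ranged from 124 to 346 TPM, with a median of 234 TPM, in CAC libraries, against 143, 109, 83.5, 166 and 69.8 TPM in NCAC libraries. Of the CAC libraries 5 of 7 lay above every NCAC library. The log2 change of 1.03 (SE 0.28, adjusted p = 0.101) did not pass the test, and without CAC replicate 3 it was 1.17 (adjusted p = 0.0357). This 8-week change was called in 3 of 24 alternatives. Averaged over the weeks in all 62 libraries, Tgfbr2 rose by 0.62 in CAC relative to NCAC tissue (SE 0.18, adjusted p = 0.0184), again the only member called, where 11.9% of all genes were called and 6.87% as higher. Without the 19 libraries high in urothelial markers it was 0.58 (adjusted p = 0.495), in a fit that called 132 of all genes, against 1738 with them. The change of this difference between 2 and 8 weeks was 1.01 (SE 0.45, adjusted p = 0.533). That test called no member, where 0.0686% of all genes were called. At the looser threshold of an unadjusted p under 0.05, 1 of 7 members passed. At 2 weeks and at 4 weeks no member was called between CAC and NCAC tissue, none had an unadjusted p under 0.05, and 0% of all genes were called.

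The 6-week Tgfbr2 call was lost without CAC replicate 1, 2 or 4 or NCAC replicate 1, 2, 4 or 5 (adjusted p from 0.05 to 0.0823), with the log2 change between 0.96 and 1.27. Transcripts of other tissues also differed between these groups: the 7 urothelial markers summed to between 5.57 and 613 TPM in CAC libraries and between 6.77 and 36.2 TPM in NCAC libraries, with Upk2 and Krt5 at 0 in all 5 NCAC libraries, and 3 of the 7 rose. The 10 skeletal muscle markers summed to between 66.0 and 1043 TPM in CAC libraries and between 30.2 and 169 TPM in NCAC libraries, none was at 0, and 2 of the 10 rose. With the muscle markers as a covariate the Tgfbr2 change was 0.79 (adjusted p = 0.235). The share of all genes called in that fit was not set beside it, so the loss may not be particular to Tgfbr2. The macrophage markers summed to between 586 and 1206 TPM in CAC libraries and between 362 and 1510 TPM in NCAC libraries, with 1 of 10 called as higher and none at 0, and 5 of the 10 endothelial markers rose, at sums of 415 to 575 TPM in CAC and 321 to 504 TPM in NCAC libraries, with none at 0. The part of macrophage and endothelial transcripts in the Tgfbr2 result was not tested.

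Tgfbr2 against mock tissue at 6 weeks was not called by the reported test but was called in 4 of 23 alternatives. Its log2 change ran from 0.70 to 1.65 over them. Leaving out a single mock library was among the alternatives that called it, as was the fibroblast covariate with that library kept. At 6 weeks the mock libraries held 98.8, 64.4, 75.3, 134 and 353 TPM, and at 8 weeks 103, 361, 114, 106 and 150 TPM. Mock replicate 5 at 6 weeks and mock replicate 2 at 8 weeks ranked 2 and 1 of 62 libraries for Tgfbr2, and they also held the top 2 values for Tgfb2, 14.2 and 15.6 TPM. Their fibroblast and progenitor sums were 3892 and 4912 TPM, the highest of the series. With them, the CAC changes of Tgfbr2 against mock tissue were 0.92 at 6 weeks (SE 0.41, adjusted p = 0.515) and 0.60 at 8 weeks (SE 0.34, adjusted p = 0.35). Without mock replicate 5 the 6-week change was 1.31 (adjusted p = 0.0379), in a fit that called 1.09% of all genes. Without mock replicate 2 the 8-week change was 0.92 and still not called (adjusted p = 0.11), and none of the 25 alternatives called it at that week. Without both libraries, an alternative chosen after the data were seen, the change averaged over the weeks was 0.63 (adjusted p = 0.00827), in a fit that called 11% of all genes, against 0.45 (adjusted p = 0.11) with them.

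Tgfbr2 in CAC tissue was set against the fibroblast and progenitor markers within arms, on the log2(TPM + 1) scale and as a description only, since libraries share their scaling and tissue make-up. Pearson's r was 0.93 over the 20 mock libraries (Spearman's rho 0.90) and 0.83 over the 20 NCAC libraries (rho 0.87), and 0.37 over the 12 CAC libraries of 6 and 8 weeks (rho 0.38, and an r of 0.23 to 0.48 without any single library). Over the 10 CAC libraries of 2 and 4 weeks r was 0.32 (rho 0.45), a value that rests on CAC replicate 2 at 4 weeks, which held 236 TPM. Without it r was 0.72 over the other 9 (rho 0.68). Over all 62 libraries r was 0.27, and 0.13 without the 2 libraries farthest from the marker median. Over the same libraries Tgfbr2 lay closer to other lists, with an r of 0.71 for macrophage markers (rho 0.70). It was 0.58 for smooth muscle and pericyte, -0.57 for adipocyte, 0.55 for endothelial and 0.54 for melanocyte markers. With values taken as deviations from group means, r was 0.76 for the fibroblast and progenitor markers and 0.79 for macrophage markers. On that scale r was 0.67 for smooth muscle and pericyte, 0.62 for endothelial, -0.49 for adipocyte and 0.39 for melanocyte markers. For Inhbb the r with the fibroblast and progenitor markers was 0.87 over 62 libraries (rho 0.90, and 0.85 without 2 libraries). Over the 12 CAC libraries of 6 and 8 weeks it was 0.51. In those 12 libraries r was 0.33 for Tgfb1, 0.65 for Tgfb2, 0.80 for Tgfb3 and 0.75 for Gdf10. The marker mean ran from 4.06 to 5.37 there, against 4.38 to 7.55 in mock libraries. The r values of these sets therefore cover unlike marker ranges. With the marker mean as covariate, the Tgfbr2 changes at 6 weeks were 1.65 against mock tissue (adjusted p = 0.00714) and 1.58 against NCAC tissue (adjusted p = 0.0138), in fits that called 7.06% and 12% of all genes. The averages over the weeks were 0.88 against mock tissue (adjusted p = 1.37e-06) and 0.99 against NCAC tissue (adjusted p = 9.23e-08), where 47.8% and 58% of all genes were called. At 8 weeks against mock tissue, the covariate gave 1.70 (adjusted p = 0.221).

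**Figure D3:**
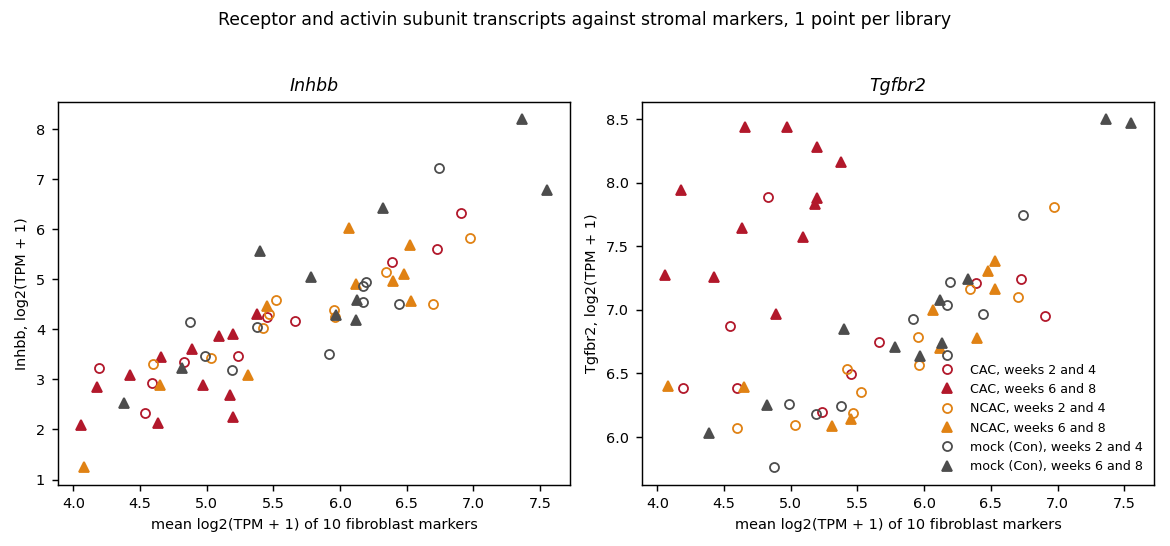
Inhbb and Tgfbr2 (log2(TPM + 1), vertical axes) against the mean log2(TPM + 1) of 10 fibroblast and progenitor markers (horizontal axis) in 62 libraries, with open circles for weeks 2 and 4 and filled triangles for weeks 6 and 8. Inhbb follows the markers (r = 0.87 over 62 libraries, and 0.51 over the 12 CAC libraries of weeks 6 and 8), whereas for Tgfbr2 most CAC libraries of weeks 6 and 8 lie high on the vertical axis at low to middle marker levels, as does CAC replicate 2 of week 4 (236 TPM).

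The balance of receptor to ligand transcript was described by dividing Tgfbr2 TPM by the summed TPM of Tgfb1, Tgfb2 and Tgfb3 in each library, a quantity chosen after the values were seen and not moved by library scaling. It was 3.16 ± 1.27, 5.16 ± 2.62, 9.45 ± 3.01 and 10.6 ± 2.85 in CAC tissue at 2, 4, 6 and 8 weeks (SD, n = 5, 5, 5 and 7). It averaged 2.79, 2.82, 3.69 and 3.36 in NCAC tissue and 3.01, 2.84, 3.52 and 3.70 in mock tissue (n = 5 each). At 6 weeks it ranged from 5.91 to 13.6 in CAC, 3.11 to 4.62 in NCAC and 2.94 to 4.64 in mock libraries, and at 8 weeks from 6.77 to 15.4, 2.35 to 4.92 and 2.26 to 5.73 in the same order of arms, with no overlap of CAC libraries with either other arm. Of all genes divided by the same ligand sum, 4.75% (against NCAC) and 3.33% (against mock) lay without overlap and higher in CAC tissue at 6 weeks, and 2.04% and 38.8% at 8 weeks, so the 8-week separation from mock tissue was common among genes.

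**Figure D4:**
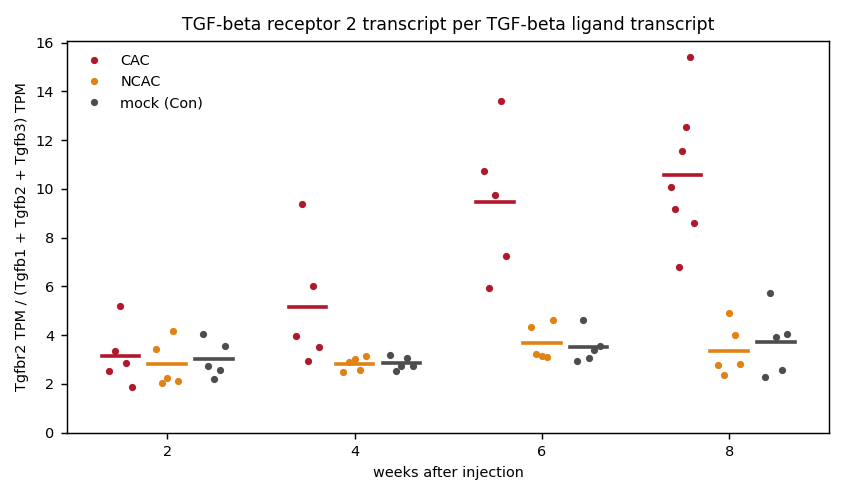
Tgfbr2 TPM divided by the summed TPM of Tgfb1, Tgfb2 and Tgfb3 in each library (points) with group means (bars) by week for CAC, NCAC and mock tissue. CAC libraries lie between 5.91 and 15.4 at 6 and 8 weeks, above all NCAC and mock libraries of those weeks.

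Acvr1c encodes ALK7, the type I receptor that is abundant in adipocytes and restrains lipolysis, and it did not pass the test in any comparison. At 8 weeks it ranged from 11.1 to 27.0 TPM, with a median of 18.7 TPM, in CAC libraries, against 26.4, 10.1, 10.5, 24.5 and 20.9 TPM in mock libraries, ranges that overlap widely (log2 change -0.02, SE 0.29, adjusted p = 0.984). NCAC libraries at 8 weeks held 16.9, 34.5, 28.0, 16.0 and 42.0 TPM, and the change of CAC against NCAC tissue was -0.58 (SE 0.28, adjusted p = 0.323). Acvr1c followed none of the marker lists closely: its highest r over 62 libraries was 0.37, with the endothelial markers (rho 0.36), and its r with the adipocyte markers was 0.26 (rho 0.25).

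Gdf10 encodes a ligand known to restrain adipogenesis in mice, and its spread within groups was wide. At 2 weeks it was 65.7, 28.1, 3.77, 16.7 and 93.5 TPM in CAC libraries, against 23.3, 15.4, 5.41, 15.8 and 16.0 TPM in mock libraries, and at 8 weeks it ranged from 7.05 to 33.2 TPM with a median of 13.7 TPM in CAC libraries, against 13.5, 32.0, 11.5, 25.9 and 24.4 TPM in mock libraries. The log2 change was 0.88 at 2 weeks (SE 0.72, adjusted p = 0.999) and -0.52 at 8 weeks (SE 0.37, adjusted p = 0.472). Its average over the weeks in CAC against mock tissue was -0.27 (SE 0.27, adjusted p = 0.589). Once the fibroblast markers entered as a covariate it was 0.43 (adjusted p = 0.0357), a turn of direction. That covariate fit called 47.8% of all genes, so a call in it was common.

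Between NCAC and mock tissue no member was called at 2, 4, 6 or 8 weeks or on average over the weeks. None of the 7 had an unadjusted p under 0.05 in any of these comparisons, and limma called 0% of all genes in each. In mock tissue at 8 against 2 weeks, no member was called and none had an unadjusted p under 0.05 (0% of all genes called). All 7 had positive values there, led by Inhbb at 1.21 (adjusted p = 0.789), as did 11260 of 14576 genes tested.

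The members under 0.5 TPM were looked at without the filter on low values, where none was called in any comparison. Gdf15, which encodes a circulating ligand read by the brainstem receptor GFRAL and raised in many wasting states, was low in adipose tissue: 0.0321 to 0.295 TPM with a median of 0.079 TPM in CAC libraries at 8 weeks, against 0.656, 0.575, 0.271, 0.155 and 0.281 TPM in mock libraries. The ranges overlap, and the log2 change was -0.32 (SE 0.09, adjusted p = 0.118). Inhba was 0.0296 to 0.611 TPM with a median of 0.381 TPM in CAC libraries at 8 weeks, against 0.429, 1.08, 0.423, 0.694 and 0.408 TPM in mock libraries (log2 change -0.26, adjusted p = 0.364). In mock tissue alone Inhba had an unadjusted p of 0.00521 at 8 against 2 weeks (log2 change 0.44, adjusted p = 0.79).

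Mstn encodes myostatin, the ligand made mainly by skeletal muscle that limits muscle mass. It was listed at 0 in 24 of 62 libraries and reached at most 1.78 TPM, in mock replicate 1 at 6 weeks. Its level followed the skeletal muscle markers, with an r of 0.88 over 62 libraries (rho 0.80, and 0.83 without 2 libraries). Mstn exceeded 0.1 TPM in 17 libraries and the muscle markers summed to over 200 TPM in 14, and 12 libraries met both.

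**Figure D5:**
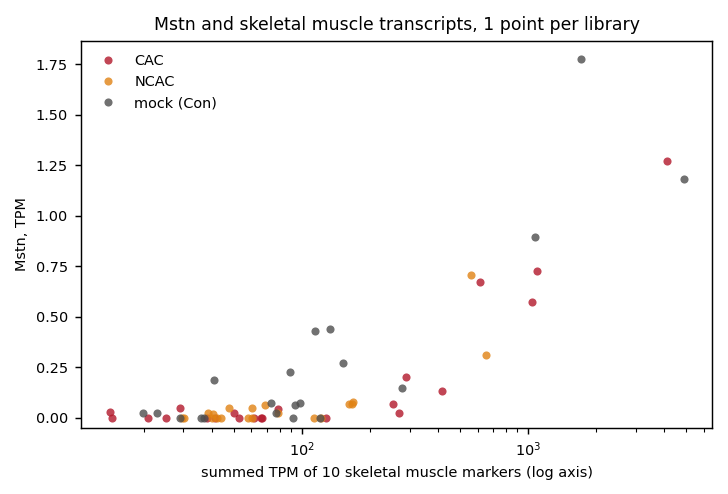
Mstn in TPM (vertical axis) against the summed TPM of 10 skeletal muscle markers (horizontal axis, log scale) in 62 libraries, coloured by arm. Of 17 libraries with Mstn above 0.1 TPM, 12 had muscle marker sums over 200 TPM.

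Most of the tested members varied together from library to library. Over 62 libraries, r with the fibroblast and progenitor markers was 0.90 for Tgfb3 (rho 0.89), 0.89 for Tgfb2 (rho 0.85), 0.78 for Gdf10 (rho 0.78) and 0.77 for Tgfb1 (rho 0.78), and without the 2 libraries farthest from the median it was 0.89, 0.86, 0.77 and 0.73. Between members, r was 0.84 for Tgfb3 with Gdf10 and 0.83 for Tgfb2 with Inhbb. Tgfbr2 had an r of 0.41 with Tgfb2 and 0.26 with Inhbb, which were 0.80 and 0.72 once each gene was taken as its deviation from its group means. Of the 7523 genes that averaged 10 TPM or more, those most like each member over 62 libraries were Col6a1 for Inhbb (r = 0.94), Ptgis for Tgfb2 (0.95), Pam for Tgfb3 (0.93), Map7d1 for Tgfb1 (0.90), Il11ra1 for Gdf10 (0.84) and Rb1 for Acvr1c (0.76). Next to Col6a1, Inhbb was most like Col5a1 (0.93), another collagen chain gene, and Glipr2 (0.92). Tgfbr2 was most like Ptpn1 (0.90), a tyrosine phosphatase, Socs3 (0.90), a feedback inhibitor of cytokine signalling, and Lgmn (0.89), a lysosomal protease.

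The promoters of Inhbb, Tgfb2, Gdf10 and Tgfbr2 are shown. The first of these, with Tgfb2 and Gdf10, followed the fibroblast and progenitor markers over the 62 libraries. Tgfbr2 did so in NCAC and mock tissue, with a lower r in CAC tissue of 6 and 8 weeks (0.37). A lower r in those CAC libraries was not particular to Tgfbr2, as Inhbb (0.51) and Tgfb1 (0.33) also had one. Sequences are RefSeq's on GRCm38.p6, 250 bases before to 50 after the gene start, read along the gene, and capitals mark the Smad core element CAGAC and the GC box GGGCGG on either strand (GTCTG and CCGCCC on the other). Of the 10 genes 9 had an entry, and Tgfb3 is named only. Inhbb lies at chr1:119422199-119422498 (minus strand), Tgfb2 at chr1:186705940-186706239 (minus), Gdf10 at chr14:33923337-33923636 (plus) and Tgfbr2 at chr9:116175314-116175613 (minus).
Inhbb: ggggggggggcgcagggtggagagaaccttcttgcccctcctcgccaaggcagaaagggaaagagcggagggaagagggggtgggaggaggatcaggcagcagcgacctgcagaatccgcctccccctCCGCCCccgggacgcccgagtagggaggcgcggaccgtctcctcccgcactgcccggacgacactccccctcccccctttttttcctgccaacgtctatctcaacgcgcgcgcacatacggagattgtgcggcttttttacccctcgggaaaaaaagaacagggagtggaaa
Tgfb2: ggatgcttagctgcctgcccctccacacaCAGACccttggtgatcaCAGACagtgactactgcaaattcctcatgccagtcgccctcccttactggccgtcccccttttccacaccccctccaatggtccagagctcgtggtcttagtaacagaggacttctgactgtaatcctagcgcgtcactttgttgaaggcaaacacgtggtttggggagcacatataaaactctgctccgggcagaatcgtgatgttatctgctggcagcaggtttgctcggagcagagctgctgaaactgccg
Gdf10: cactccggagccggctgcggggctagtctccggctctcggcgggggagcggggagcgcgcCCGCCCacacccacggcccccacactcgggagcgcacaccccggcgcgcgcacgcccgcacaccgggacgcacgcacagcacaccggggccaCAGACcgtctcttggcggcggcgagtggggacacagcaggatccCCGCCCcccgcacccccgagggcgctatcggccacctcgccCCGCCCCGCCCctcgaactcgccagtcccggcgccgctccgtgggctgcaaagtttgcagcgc
Tgfbr2: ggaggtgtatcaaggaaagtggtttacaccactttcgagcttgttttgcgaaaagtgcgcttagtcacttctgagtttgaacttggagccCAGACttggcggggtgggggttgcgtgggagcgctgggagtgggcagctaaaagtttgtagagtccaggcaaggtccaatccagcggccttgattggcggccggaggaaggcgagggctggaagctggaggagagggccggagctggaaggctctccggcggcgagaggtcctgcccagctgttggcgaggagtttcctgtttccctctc
Of 32851 promoters of the same length, 49.6% held CAGAC and 35.7% GGGCGG. Tgfb2 held 2 CAGAC matches and no GC box, Gdf10 held 1 CAGAC match and 4 GC boxes, Inhbb held 1 GC box and no CAGAC, and Tgfbr2 held 1 CAGAC match and no GC box. Neither motif was found in all 4, and a match is a string of letters, not a site.

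The other genes of the superfamily were taken from 6 role lists that hold 97 further symbols of the table, of which 79 were tested. In CAC against mock tissue at 8 weeks 10 of these 79 fell and 0 rose, against 1.99% of all genes called lower. By role, with the members included, 3 of 16 ligand genes, 2 of 12 latency and activation genes, 0 of 15 receptors, 0 of 8 Smads, 2 of 20 antagonists and 5 of 15 target genes fell. The median log2 changes of these lists were -0.60, -0.59, -0.02, -0.08, -0.35 and -0.92, against -0.08 over all genes tested.

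The genes that fell outside the members included a ligand, latency proteins, antagonists and collagens. Bmp6, a BMP ligand, averaged 5.52 ± 2.37 TPM in CAC libraries and 11.0 ± 1.69 TPM in mock libraries (SD, n = 7 and 5). Of the CAC libraries 7 of 7 lay under all mock libraries, as for 2.22% of all genes (log2 change -0.95, SE 0.24, adjusted p = 0.0474). Among latency genes, Thbs1, which activates latent TGF-beta, fell by 2.65 (adjusted p = 0.0402) and Fbn1, the fibrillin that anchors latent complexes, fell by 2.28 (adjusted p = 0.00623). Fstl3, a follistatin-like protein that binds activins and myostatin, fell by 1.28 (adjusted p = 0.0304), and Fstl1, a secreted glycoprotein, fell by 1.88 (adjusted p = 0.0183). The collagen target Col1a1 fell by 3.15 (adjusted p = 0.021), and Col3a1 fell by 2.81 (adjusted p = 0.0143). Several of these calls lay near the threshold. Over 25 alternatives the log2 change ran from -1.23 to -0.87 for Bmp6 and from -3.04 to -1.54 for Thbs1. Leaving out 1 library at a time ended the call of Bmp6 and of Thbs1 in 9 of 12 cases each (adjusted p up to 0.114 and 0.0975), of Fstl3 in 7 and of Col1a1 in 2. For Bmp6 these were CAC replicates 2, 4, 5 and 7 and every mock replicate, for Thbs1 CAC replicates 3 to 7 and mock replicates 1, 2, 4 and 5, for Fstl3 CAC replicates 4 to 7 and mock replicates 1, 2 and 5, and for Col1a1 CAC replicate 7 and mock replicate 5. Fbn1, Fstl1 and Col3a1 kept their calls without any single library, and none of the 7 genes kept its call with the fibroblast covariate. That fit called 0.00686% of all genes, against 3.07% without the covariate, so these losses do not set the 7 genes apart. Fbn1 and Col1a1 are also among the 10 fibroblast markers. Id3, Postn and Fn1, named after their values were seen, fell as well.

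At 6 weeks, CAC against NCAC tissue had 2 of the 79 genes called higher and 2 lower, against 4.94% and 0.844% of all genes. Acvr1b, the activin type I receptor ALK4, rose to 22.1 ± 7.67 TPM in CAC tissue, against 8.77 ± 3.34 TPM in NCAC tissue (SD, n = 5 each), a log2 change of 1.23 (SE 0.26, adjusted p = 0.024). Acvr1b and Tgfbr2 were the 2 receptors of 15 called in that comparison, both higher. Chrd, which encodes the BMP antagonist chordin, was 7.41 ± 1.12 TPM in CAC tissue and 4.10 ± 0.59 TPM in NCAC tissue (SD, n = 5 each), with 5 of 5 CAC libraries above every NCAC library, as for 6.88% of all genes (log2 change 0.72, adjusted p = 0.0167). Fbn1 fell by 1.93 (adjusted p = 0.0367) and Col3a1 fell by 2.21 (adjusted p = 0.0251). Leaving out 1 library at a time ended the call of Fbn1 in 7 of 10 cases, all but CAC replicate 3 and NCAC replicates 3 and 5. It ended that of Col3a1 in 5, CAC replicates 1, 4 and 5 and NCAC replicates 1 and 2. It ended that of Acvr1b in 5, CAC replicates 1 and 4 and NCAC replicates 1, 2 and 4, and that of Chrd without NCAC replicate 2 only. With the muscle markers as a covariate Acvr1b was 0.65 (adjusted p = 0.169), and the share of all genes called in that fit was not set beside it.

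Averaged over the weeks, Bmp6 fell by 0.71 in CAC against mock tissue (SE 0.10, adjusted p = 8.92e-07) and fell by 0.60 in CAC against NCAC tissue (SE 0.10, adjusted p = 2.27e-05); both comparisons share the CAC libraries. Bmp6 means at 2, 4, 6 and 8 weeks were 8.18, 8.14, 6.21 and 5.52 TPM in CAC tissue, 11.3, 11.3, 10.2 and 10.6 TPM in NCAC tissue, and 10.8, 12.9, 12.8 and 11.0 TPM in mock tissue. These averaged Bmp6 calls held under every alternative run, 12 of 12 and 11 of 11. Among them was leaving out the 19 libraries with over 100 TPM of urothelial markers (-0.92, adjusted p = 3.5e-05, and -0.76, adjusted p = 0.000486). Single libraries were left out in turn for the 8-week Bmp6 call but not for the averages. How firmly the 8-week and averaged calls held therefore cannot be compared directly. In the 2 averaged comparisons 2 of the 79 genes rose and 8 fell against mock tissue, where 11.4% of all genes were called, and 6 rose and 8 fell against NCAC tissue, where 11.9% were, with 0 of 79 called between NCAC and mock tissue, where 1 had an unadjusted p under 0.05. Those called against NCAC tissue included Bmp7, a BMP ligand (0.77, adjusted p = 0.0159), Furin, the protease that cleaves pro-TGF-beta (0.26, adjusted p = 0.0387), Sostdc1, a BMP antagonist (0.50, adjusted p = 0.00189), and Cdkn1a, a cell cycle inhibitor induced by TGF-beta (0.91, adjusted p = 0.0324). Urothelial markers were higher in the same comparison, 6 of 7 called. Of the genes named here as averaged calls, Bmp6 was the only one that kept its call without the 19 libraries. Leaving them out cut the calls over all genes from 1658 to 123 against mock tissue and from 1738 to 132 against NCAC tissue. Losing a call in that setting was therefore common among all genes.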

How the data were processed

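The authors deposited 1 table of TPM values per gene symbol for 62 libraries, and those values were used as deposited. Per the labels' protocols, tissue was lysed in Trizol, libraries were made with a TruSeq stranded mRNA kit, and sequencing was on a NovaSeq instrument. Per the submitters' processing notes the genome build was mm10, and the aligner, the counting method and the depth per library were not given in the sources used here. TPM are relative, so a rise of abundant transcripts lowers the others.

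Values were tested as log2(TPM + 1) with limma 3.58.1 in R 4.3.3 (lmFit, then eBayes with trend and robust), two-sided, with Benjamini-Hochberg adjustment over all symbols with a mean of at least 0.5 TPM. Weekly comparisons used the groups compared, and averages over weeks used all 62 libraries. The tables were handled in Python 3.11.15 with pandas 2.3.3. The code was tested on simulated data. The 10 genes, the gene and marker lists and the tests were chosen with earlier results of these data known. Named genes outside the members are, per role list and comparison, at most 2 that rose most and 2 that fell most among those called. The nearest genes are up to 3 with the highest Pearson correlation, of which those printed are a part. Lrrc33, Cripto and Ccn2 were taken under Nrros, Tdgf1 and Ctgf, and Ltbp4 was not analysed here.

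Alternatives were another pseudocount, other filters on low values, other scalings, other variance models, a replicate block, marker covariates and libraries without urothelial transcripts. Each replicate was also left out in turn, except for the averages and the interaction tests. Replicate numbers were checked for pairing: correlations between same-numbered libraries in deviations from group means ran from -0.65 to 0.57. Libraries matched their own number best in 0 to 3 of 5 pairs. No range for differently numbered libraries was set beside these values, so the check cannot exclude pairing. The reported tests treated libraries as unpaired. The p-values set a difference in group means against the spread between libraries, with limma drawing on all genes to estimate that spread. They do not cover variation between melanoma lines or clones, whose number was not given.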

Additional observations from a re-analysis of the deposited data

Results flagged for a closer look

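In each group of 5 or 7 libraries, the highest or lowest library was compared with its nearest neighbour by Dixon's ratio. Of 120 sets of 1 gene in 1 group, 13 held a library that stood apart, and about 6 would do so by chance at 1 in 20. Mstn gave 6 of them, where most other libraries of the group were at or near 0: it was 0.0225 TPM in CAC replicate 3 and 0.0462 TPM in NCAC replicate 4 at 2 weeks, 1.27 TPM in CAC replicate 2 and 0.309 TPM in NCAC replicate 1 at 4 weeks, and 0.726 TPM in CAC replicate 3 and 0.705 TPM in NCAC replicate 3 at 8 weeks. Inhba was high in NCAC replicate 1 at 8 weeks (0.650 TPM) and in mock replicate 5 at 6 weeks (1.15 TPM), the library that also held the highest Tgfb1 and Tgfb3 of the series. Inhbb was low in NCAC replicate 3 at 8 weeks (1.37 TPM). Gdf15 was high in CAC replicate 3 at 4 weeks (0.374 TPM) and in CAC replicate 2 at 8 weeks (0.295 TPM). Gdf10 was low in NCAC replicate 1 at 4 weeks (12.3 TPM), and Tgfb3 was low in mock replicate 3 at 4 weeks (7.76 TPM).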

How the results depend on the processing

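Over all alternatives, 2467 log2 changes of members were recomputed: 2379 stayed on their side of the threshold, 39 lost a call, 48 gained one and 1 reversed, and 218 changed sign without being called before or after. The reversal was Gdf10 averaged over weeks in CAC against mock tissue, 0.43 with the fibroblast covariate, in a fit that called 47.8% of all genes. Counts of members called in CAC against mock tissue at 8 weeks were 2, and became 0 without a filter on low values, with the replicate block, without the urothelial libraries (which leaves 2 CAC libraries) and with the fibroblast covariate; 1 with all 62 libraries in 1 fit, with the muscle covariate and without mock replicate 2; and 4 with median-ratio rescaling, without mitochondrially encoded genes and with library weights. At 6 weeks the count was 0, and became 3 with library weights, and 1 with the fibroblast covariate and without mock replicate 5. In CAC against NCAC tissue at 6 weeks it was 1, and became 0 without a filter, without mitochondrially encoded genes, with all 62 libraries and without the urothelial libraries, 2 with rescaling and with the replicate block, and 3 with weights. At 8 weeks it was 0, and became 1 with rescaling and 4 with weights. The interaction tests gave 0, and 2 (against mock) and 1 (against NCAC) with weights. The averages gave 1 each: against mock tissue 4 with rescaling, 3 without mitochondrially encoded genes, 5 with weights, 0 without the urothelial libraries and 2 with the fibroblast covariate; against NCAC tissue 2, 2, 5 and 0 under the first 4 of these. The causes were not tested. Calls over all genes rose in these fits as well. With library weights they went from 52 to 2758 against mock tissue at 6 weeks. Against NCAC tissue they went from 843 to 3307 at 6 weeks and from 77 to 3061 at 8 weeks. The interaction tests went from 8 to 777 (mock) and from 10 to 1161 (NCAC). Higher member counts with weights were therefore not particular to the members. Shares of all genes were not set beside the other counts in this paragraph. With single replicates left out, counts ranged from 0 to 1 in CAC against mock tissue at 6 weeks, 0 to 2 at 8 weeks, and in CAC against NCAC tissue from 0 to 1 at 6 weeks and 0 to 3 at 8 weeks.

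The replicate block took the 8-week changes of Inhbb and Tgfb3 against mock tissue to -2.72 (adjusted p = 0.123) and -0.86 (adjusted p = 0.135), and gave Tgfb2 -0.90 (adjusted p = 0.0259) against NCAC tissue at 6 weeks; libraries matched their own number best in 0 to 3 of 5 pairs. Counts over all genes moved more: 448 at 8 weeks against mock tissue ranged from 0 without the urothelial libraries to 2061 without mitochondrially encoded genes, and 843 at 6 weeks against NCAC tissue from 62 to 3307. Library weights also called 1078 genes in NCAC against mock tissue at 6 weeks, where the reported test called 0, but no member. Median-ratio rescaling moved the median of all genes by 0.16 in that comparison and by -0.15 in CAC against NCAC tissue at 6 weeks.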
